A study of Homo sapiens with 6 samples.

Results

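Metallothioneins and the genes that work with them were followed in RNA-seq of HEK293T, an established line of human embryonic kidney cells with SV40 large T antigen. The members were chosen by name: the metallothioneins MT1E, MT1F, MT1G, MT1X, MT1M, MT2A and MT3, the transcription factor gene MTF1 and the zinc exporter gene SLC30A1, which makes 9 of the 47470 genes listed in the count tables. Cells labelled WT were left without any treatment, and cells labelled VPA-treated were given valproic acid (VPA), which inhibits histone deacetylases, at 1 mM for 1 day, with 3 libraries per condition and 6 in all. The labels give the treatment of the untreated cells as none and name no vehicle, both conditions are the same cell line, and the labels do not say whether the libraries came from separate cultures, so that p-values measure the spread between these libraries. In such bulk libraries, fewer cells with an RNA and less of that RNA per cell cannot be told apart.

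Metallothioneins are small, cysteine-rich proteins that bind zinc and copper ions and buffer cells against heavy metals such as cadmium. MTF1 encodes the factor that senses zinc through its zinc fingers and then binds metal response elements, short motifs in the promoters of metallothionein genes and of SLC30A1. SLC30A1 encodes ZnT1, which moves zinc out of the cell across the plasma membrane. MT2A and the MT1 genes are inducible in many tissues including kidney, whereas MT3 is known mainly from the brain.

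The libraries held between 18622267 and 18828495 counts on genes, and 15298 genes passed the filter on low counts. Of 8 marker genes of the line, all 8 were tested, and their summed level was 18470 to 18820 normalized counts without treatment and 20640 to 21940 with VPA. The 9 markers of other cell types summed to at most 2.10 normalized counts in an untreated library and to 4.79 to 15.3 in a VPA-treated one, with INS and UMOD among those at 0. Their part in the results was not tested. ACTB, the cytoplasmic actin gene, was lower by a log2 fold change of -0.17 (adjusted p = 0.0041, edgeR).

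The 7 metallothionein members lie in 1 cluster on chromosome 16, from 56589528 to 56684196 in RefSeq on GRCh38.p14, with other metallothionein genes and pseudogenes between them. MT1G is on the minus strand and the other 6 are on the plus strand. MTF1 and SLC30A1 are both on the minus strand of chromosome 1, the first from 37809574 to 37859592 and the second from 211571568 to 211579161. To see which members hold the binding motif of MTF1 near their start, the 250 bases upstream of the transcription start were read for the members with an entry in the RefSeq promoter table, MT2A, MT1X, SLC30A1 and MTF1. MT1E, MT1F, MT1G, MT1M and MT3 have no entry. The core of the metal response element was searched as TGCACNC and TGCGCNC on both strands. The sequences of the 3 members with a match are shown 5′ to 3′ on the strand of the gene, with each match to either core in capitals, and a core on the opposite strand appears as its reverse complement.
MT2A, plus strand, chr16:56608334-56608583: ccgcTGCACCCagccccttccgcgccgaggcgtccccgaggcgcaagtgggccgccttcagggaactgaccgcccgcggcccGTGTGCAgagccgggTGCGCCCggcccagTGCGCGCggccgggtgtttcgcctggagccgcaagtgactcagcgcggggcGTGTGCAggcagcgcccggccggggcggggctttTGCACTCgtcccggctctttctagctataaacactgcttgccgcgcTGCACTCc
MT1X, plus strand, chr16:56682220-56682469: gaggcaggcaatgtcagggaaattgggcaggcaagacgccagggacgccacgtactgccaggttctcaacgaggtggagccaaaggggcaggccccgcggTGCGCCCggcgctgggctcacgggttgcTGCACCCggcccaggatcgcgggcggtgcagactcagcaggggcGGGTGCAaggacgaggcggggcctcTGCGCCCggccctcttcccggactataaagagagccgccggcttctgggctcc
SLC30A1, minus strand, chr1:211579162-211579411: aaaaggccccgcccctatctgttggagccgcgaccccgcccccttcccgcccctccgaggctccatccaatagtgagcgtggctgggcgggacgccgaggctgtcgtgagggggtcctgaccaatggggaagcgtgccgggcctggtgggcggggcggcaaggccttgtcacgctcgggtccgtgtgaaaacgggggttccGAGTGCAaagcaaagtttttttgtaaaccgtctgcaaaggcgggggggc

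The MT2A window held 7 matches, 5 of TGCACNC and 2 of TGCGCNC, and none of them overlapped. MT1X held 4 matches, 2 of each core, and SLC30A1 held 1. The MTF1 window held none of these letters. Among 35116 RefSeq promoter windows of the same length, 24.8% held at least 1 match, 0.37% at least 4 and 0.0313% at least 7. MT2A and MT1X also carry a TATAAA, which begins at base -29 in MT2A and at base -30 in MT1X counted from the start, a motif found on the gene strand of 6.80% of the windows. A match of this kind is a description of the sequence and not a site shown to be bound.

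**Figure D1:**
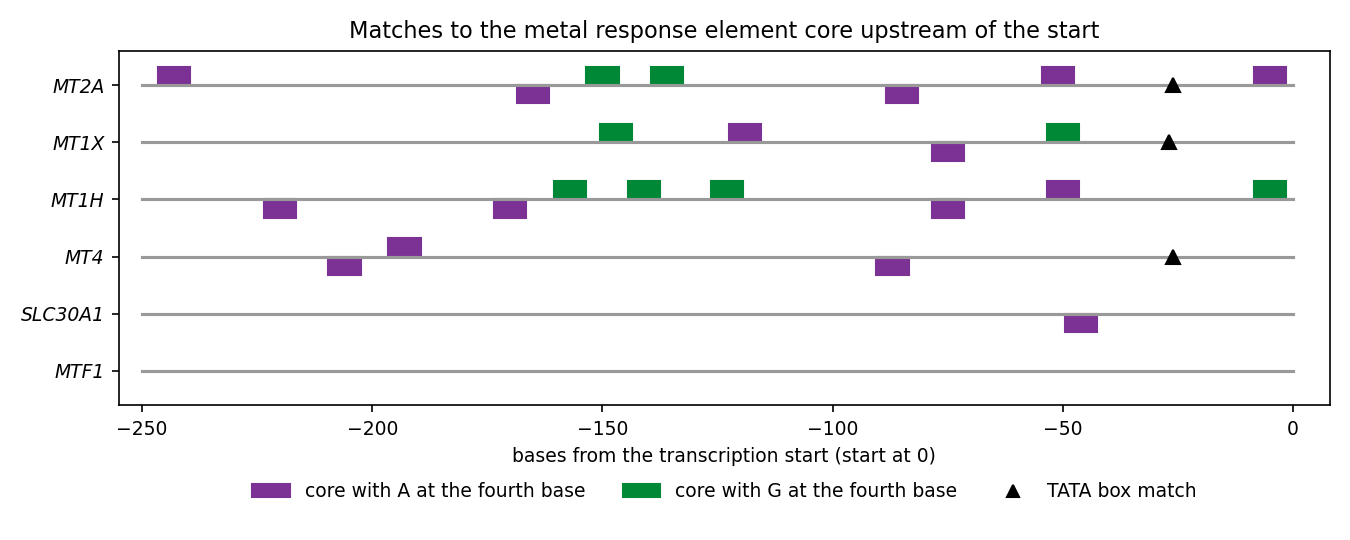
Positions of the matches to the metal response element core in the 250 bases upstream of the transcription start of 6 genes. The horizontal axis is the distance from the start in bases. Boxes above a line are matches on the gene strand and boxes below it are on the opposite strand. The count falls from 8 in MT1H and 7 in MT2A to 1 in SLC30A1 and 0 in MTF1.

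The copies resemble each other, which limits how their reads can be counted. The coding sequences of MT1E, MT1F, MT1G, MT1X, MT1M and MT2A were between 88.7% and 95.1% identical in pairs, with MT1F and MT1X furthest apart and MT1G and MT2A closest, and MT3 was 75.6% to 78.5% identical to each of them. Reads without a unique place, 2.81% to 2.92% in each library, were not counted on any gene. Of all 50-base windows of a GENCODE transcript, the share that also occurs in a transcript of another gene elsewhere was 20.2% for MT1G, 18.0% for MT1X, 14.6% for MT1M, 11.1% for MT2A, 6.12% for MT1F and 5.34% for MT1E. It was 0 for MT3 and SLC30A1 and 0.647% for MTF1. No window of 100 bases was shared for any of the 9 members. The read length is not given in the sources used here, and reads that differ from the reference were not considered in this comparison.

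Of the 7 metallothioneins, MT2A, MT1X and MT1F were counted in every library, and all 3 rose with VPA. SLC30A1 rose as well, whereas the change of MTF1 did not pass the test. In the terms used here a gene rose or fell when its adjusted p from edgeR's quasi-likelihood test was under 0.05, and was up- or down-regulated when its log2 fold change also reached 1 in size. Thus 4 of the 9 members rose and 0 fell, 1 did not pass the test and 4 had no counts to test. All 5 counted members had at least 21 reads in each library, so that none was tested only because of its level after VPA. Over all tested genes 32.9% rose and 30.0% fell, 12.0% were up-regulated and 0.503% were down-regulated. MT1F was the 1 member up-regulated. The 4 members that rose are also those whose VPA-treated libraries all lay above the untreated ones, which held for 34.8% of all tested genes, against 31.0% with all VPA-treated libraries below. The median log2 fold change of the 5 tested members was 0.52, beside 0.0058 over all genes tested.

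MT2A, a metallothionein made in most human tissues and induced by metals, gave raw counts of 260, 248 and 249 before treatment and of 519, 496 and 473 with VPA. On the normalized scale, where counts are adjusted by TMM to the mean library, these were 269, 260 and 261 before and 497, 478 and 453 after VPA. The lowest VPA-treated library was thus well above the highest untreated one. The mean rose from 263 ± 5.10 to 476 ± 22.3 normalized counts (n = 3 each, SD), which was 1.81-fold (log2 fold change 0.85 ± 0.070 SE, adjusted p = 8.58e-10, edgeR).

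MT1X, the second most counted copy, gave 173, 195 and 187 normalized counts in untreated libraries and 253, 263 and 278 in VPA-treated libraries. The groups did not overlap, and the difference was smaller in relative terms than for MT2A. Its mean went from 185 ± 11.0 to 265 ± 12.4 normalized counts (n = 3 each, SD) (log2 fold change 0.52 ± 0.086 SE, adjusted p = 2.01e-05, edgeR). A further gene of GENCODE, ENSG00000259827, overlaps MT1X, but no other RefSeq gene does.

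MT1F had the largest relative change among the counted members and the fewest reads, 288 over the 6 libraries. The raw reads were 21, 28 and 31 in untreated libraries and 68, 71 and 69 in VPA-treated libraries, so that each VPA-treated library held more than the highest untreated one. In normalized counts the mean was 27.9 ± 5.54 before and 66.5 ± 1.67 after VPA (n = 3 each, SD). This was a 2.38-fold rise (log2 fold change 1.25 ± 0.18 SE, adjusted p = 2.46e-06, edgeR).

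**Figure D2:**
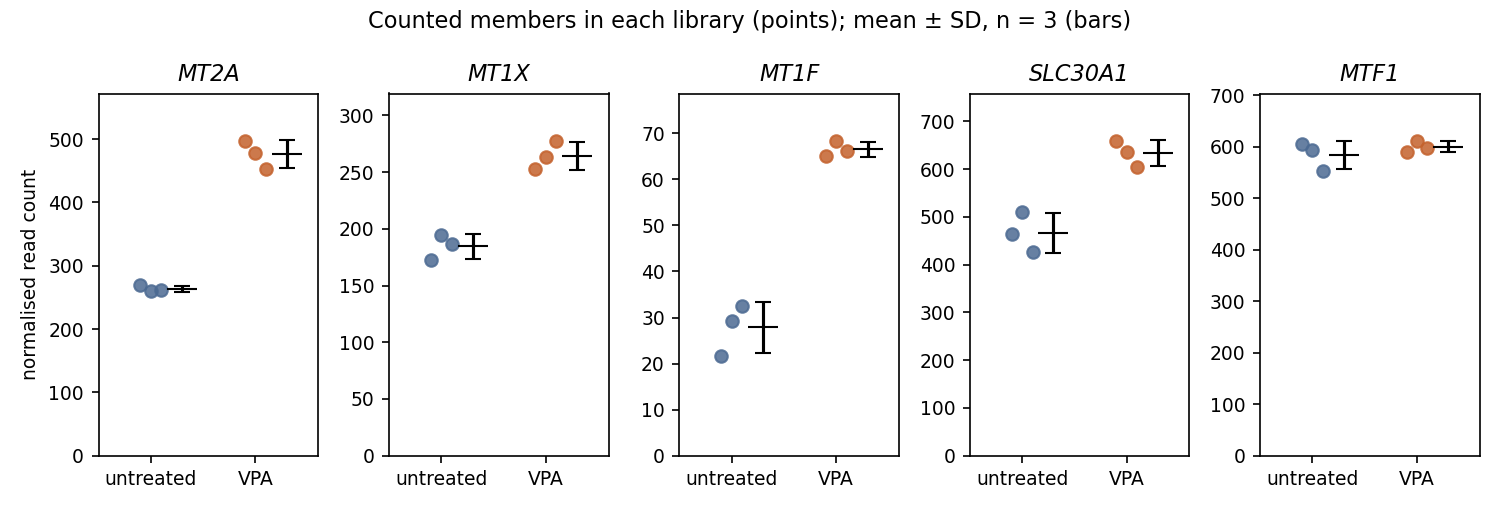
Normalized read counts of the 5 counted members in each library, on axes that start at 0 and differ between panels. Points are libraries, and the bars give the mean ± SD of n = 3. In MT2A, MT1X, MT1F and SLC30A1 every VPA-treated library lies above every untreated one, whereas in MTF1 the libraries overlap.

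To allow for reads placed on the wrong copy, the 7 metallothioneins were also summed into 1 row before the fit. The sum was 464, 484 and 481 normalized counts in untreated libraries and 815, 809 and 797 in VPA-treated libraries. Its mean rose from 476 ± 10.7 to 807 ± 9.63 (n = 3 each, SD), or 1.70-fold (log2 fold change 0.76 ± 0.056 SE, adjusted p = 1.34e-10, edgeR). Since all other copies were at 0, MT2A, MT1X and MT1F make up the whole sum. MT1X took 38.8% ± 1.49 of it in untreated cells and 32.8% ± 1.93 after VPA (n = 3 each, SD; two-sided exact permutation p = 0.1, which is the lowest possible for 3 libraries against 3). MT1F took 5.84% ± 1.06 before and 8.25% ± 0.235 after VPA, with the same exact p of 0.1, and the share of MT2A, 55.4% ± 2.34 and 59.0% ± 2.07, overlapped between the groups (exact permutation p = 0.2).

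MT1E, MT1G, MT1M and MT3 are listed at 0 in all 6 libraries. A count of 0 among 56367937 reads on genes in untreated cells, or among 55996228 after VPA, allows up to 3 reads per condition by counting error alone. A change in these 4 genes was not detectable in these counts. The same holds for the 9 further metallothionein genes and pseudogenes that the tables list, MT1A, MT1B, MT1H, MT4, MT1L, MT1JP, MT1DP, MT1IP and MT1HL1, all 9 at 0. MT1H, whose window holds 8 matches to the core, thus gave no reads in either condition. Whether reads of these copies were set aside as not unique was not tested. All 1610 genes matched to chromosomes X and Y are listed at 0 as well. Whether a 0 here comes from depth, from the annotation or from the counting was not tested. For MT3 no 50-base window is shared with another gene.

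SLC30A1, the exporter, went from 464, 510 and 426 normalized counts in untreated cells to 659, 637 and 605 with VPA. Each VPA-treated library was above each untreated library. The mean rose from 467 ± 41.9 to 634 ± 27.2 normalized counts (n = 3 each, SD), or 1.36-fold (log2 fold change 0.44 ± 0.067 SE, adjusted p = 6.82e-06, edgeR). MTF1, whose protein is the zinc-sensing activator, had 606, 594 and 553 normalized counts in untreated and 590, 612 and 597 in VPA-treated libraries. Here the groups overlapped, with means of 584 ± 27.4 and 600 ± 10.9 (n = 3 each, SD), and no call was made (log2 fold change 0.038 ± 0.059 SE, adjusted p = 0.591, edgeR). The pseudogene RPS2P13 overlaps MTF1 in RefSeq. The sign and the call for MTF1 depended on the processing. The log2 fold change was -0.0064 without untreated replicate 3 (adjusted p = 0.941, edgeR), while MTF1 passed the test with library totals, at 0.17 (adjusted p = 0.019, edgeR), and with ribosomal protein genes as the scaling, at 0.31 (adjusted p = 0.000103, edgeR). With these 2 scalings the median of all tested genes was at 0.14 and 0.28.

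Ratios of raw counts within a library do not depend on how libraries are scaled. The ratio of MT2A to MTF1 was 0.444, 0.437 and 0.473 without treatment and 0.843, 0.781 and 0.758 with VPA, a difference of 0.81 in mean log2 ratio. The ratio of SLC30A1 to MTF1 was 0.766, 0.859 and 0.770 before and 1.12, 1.04 and 1.01 after VPA, a difference of 0.41. In both, the VPA-treated libraries lay above the untreated ones, so that MT2A and SLC30A1 gained reads relative to MTF1 in all 3 treated libraries. Among the metallothioneins the ratio of MT2A to MT1X went from 1.43 ± 0.115 to 1.80 ± 0.168 and that of MT1X to MT1F from 6.78 ± 1.11 to 3.98 ± 0.197 (n = 3 each, SD), also without overlap. MT2A relative to SLC30A1 went from 0.568 ± 0.0532 to 0.751 ± 0.0030, and MT2A relative to MT1F from 9.76 ± 2.31 to 7.16 ± 0.416 (n = 3 each, SD). These 6 ratios each gave p = 0.1 in a two-sided exact permutation test, the smallest p possible with 3 libraries against 3, so that none could pass 0.05, and Benjamini-Hochberg adjustment over the 6 leaves it at 0.1.

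**Figure D3:**
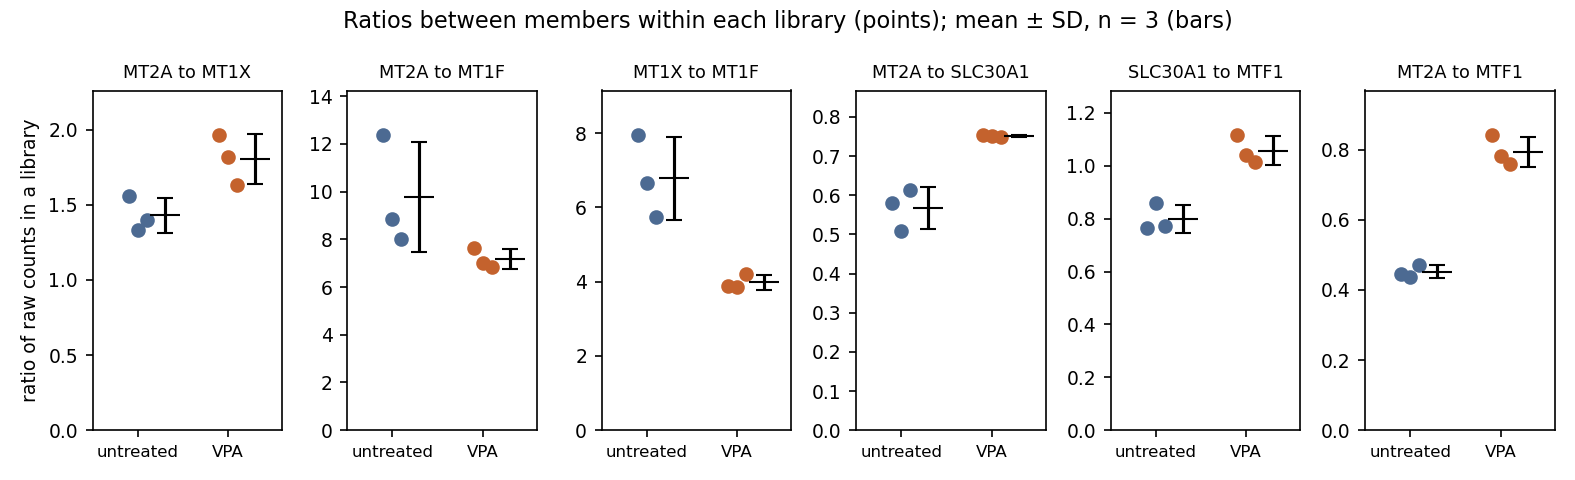
Ratios between the raw counts of pairs of members within each library, on axes that start at 0. Points are libraries, and the bars give the mean ± SD of n = 3. In all 6 panels the untreated and VPA-treated libraries are separate, with the VPA-treated ratios higher in 4 panels and lower in MT2A to MT1F and MT1X to MT1F.

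Levels of different genes were compared per kilobase of transcript, since MT2A has a transcript of 401 bases and MTF1 one of 7937 bases. In untreated cells MT2A had 657 ± 12.7 normalized counts per kilobase and MT1X 458 ± 27.3 (n = 3 each, SD), which was more than for 83.3% and 76.7% of the 14272 tested genes with a length. SLC30A1 with 79.2 ± 7.10, MTF1 with 73.6 ± 3.46 and MT1F with 65.6 ± 13.0 followed, and the libraries of these 3 genes overlapped, so that their order is not beyond the spread. After VPA the order was MT2A at 1187 ± 55.6, MT1X at 655 ± 30.7, MT1F at 157 ± 3.92, SLC30A1 at 107 ± 4.62 and MTF1 at 75.6 ± 1.37 normalized counts per kilobase (n = 3 each, SD), with no overlap between neighbors. On this scale MT1F thus went from a level that overlapped those of MTF1 and SLC30A1 to one above both. The full transcript length was used with no allowance for fragment length, so the order between genes holds for this measure only.

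Zinc transporters and other genes described as targets of MTF1 were then listed beside the members. The SLC30 list held 10 genes, SLC30A1 included, and most of their proteins move zinc out of the cytosol. Of these, 8 were tested, 5 rose and 1 fell, with a median log2 fold change of 0.29. Over all tested genes 32.9% rose and 30.0% fell, with a median of 0.0058. SLC30A3, which encodes the transporter that fills synaptic vesicles with zinc, had the largest increase of the list, from 63.6 ± 7.99 to 319 ± 25.8 normalized counts (n = 3 each, SD), a log2 fold change of 2.32 ± 0.11 SE (adjusted p = 1.12e-13, edgeR). DNAJC5G overlaps it. SLC30A10, which encodes a manganese exporter of this family, was also up-regulated, from 47.3 ± 3.09 to 98.8 ± 6.61 (n = 3 each, SD; adjusted p = 9.38e-07, edgeR). Both of the most counted genes of the list changed little: SLC30A9 had a log2 fold change of 0.14 (adjusted p = 0.017, edgeR) and SLC30A5 one of -0.096 (adjusted p = 0.073, edgeR). The gene that fell was SLC30A6, with a log2 fold change of -0.37 (adjusted p = 1.51e-05, edgeR). SLC30A8 is listed at 0 and SLC30A2 had 18 reads in all.

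The SLC39 genes, whose proteins bring zinc into the cytosol, showed smaller changes. Of 14 members 11 were tested, 5 rose, 2 fell and 4 did not pass, none was up- or down-regulated, and the median log2 fold change was 0.12. The counts stand beside 32.9% that rose, 30.0% that fell and 12.0% that were up-regulated over all tested genes. With library totals as the scaling 9 rose and 0 fell. In the main fit SLC39A6 rose the most, by a log2 fold change of 0.36 (adjusted p = 6.56e-08, edgeR), and with SLC39A7 it had the most counts. SLC39A7 itself, at 4092 ± 330 and 4136 ± 79.4 normalized counts (n = 3 each, SD), differed by less than the spread (log2 fold change 0.016, adjusted p = 0.796, edgeR). SLC39A4, the gene behind the zinc deficiency disease acrodermatitis enteropathica, and SLC39A1 fell, with log2 fold changes of -0.37 and -0.18 (adjusted p = 0.0056 and 0.00051, edgeR). The libraries of SLC39A4 overlapped between the groups, and those of SLC39A1 did not. SLC39A10, an importer that MTF1 is known to repress, rose from 1484 ± 35.3 to 1798 ± 62.0 normalized counts (n = 3 each, SD; adjusted p = 1.76e-05, edgeR).

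With SLC39A10 counted again, 7 of the 8 other MTF1 targets were tested, of which 4 rose and 1 fell, with a median log2 fold change of 0.20. Among all tested genes 32.9% rose and 30.0% fell. CSRP1, the gene for a LIM domain protein, was up-regulated from few reads, from 18.1 ± 7.63 to 51.2 ± 9.29 normalized counts (n = 3 each, SD) (log2 fold change 1.49 ± 0.25 SE, adjusted p = 1.85e-05, edgeR). PGF, which encodes placental growth factor, rose by a log2 fold change of 0.80 (adjusted p = 6.15e-08, edgeR) and NDRG1, a stress-responsive gene, by 0.20 (adjusted p = 0.00068, edgeR). SELENOH, a nucleolar selenoprotein gene, fell from 941 ± 35.2 to 680 ± 34.2 normalized counts (n = 3 each, SD, adjusted p = 2.45e-07, edgeR). GCLC, the rate-limiting enzyme gene of glutathione synthesis, had a log2 fold change of 0.076 (adjusted p = 0.182, edgeR). HAMP had 1 read in all.

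Metallothioneins also bind copper, and 10 of 11 genes of copper handling were tested. Of these 10, 2 rose and 5 fell with a median log2 fold change of -0.14, beside 32.9% and 30.0% over all tested genes. ATP7A, on chromosome X, is listed at 0, as are all 1610 genes matched to chromosomes X and Y. SCO2, needed to load copper into cytochrome c oxidase, had the lowest log2 fold change, -0.50 (adjusted p = 4.53e-06, edgeR), and NCAPH2 and TYMP overlap it. The copper importer gene SLC31A1 fell from 1928 ± 99.9 to 1666 ± 13.3 normalized counts (n = 3 each, SD), and SLC31A2 rose from 122 ± 24.4 to 162 ± 14.6. SOD1, the most counted of the list, had a log2 fold change of -0.17 (adjusted p = 0.031, edgeR), and its libraries overlapped between the groups. COX11, next by counts and needed to place copper in the same oxidase, was at -0.19 (adjusted p = 0.0011, edgeR). None of the 10 reached a log2 fold change of 1 in size. The calls depended on the processing, since 3 copper genes rose and 1 fell with library totals and 5 rose and 1 fell with ribosomal protein genes as the scaling. With DESeq2 0 rose, so that SLC31A2 lost its call, and 4 fell, and 1 rose without untreated replicate 1 or without VPA replicate 3.

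**Figure D4:**
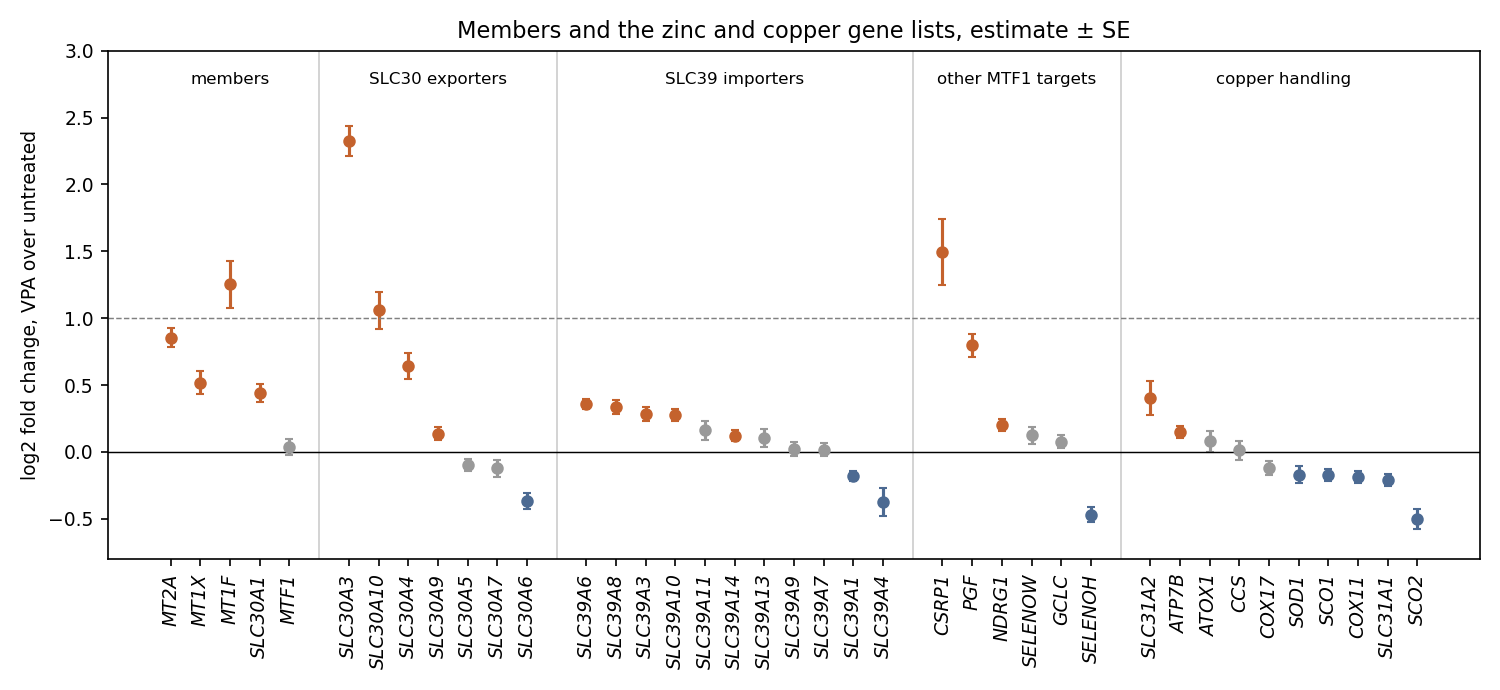
Log2 fold change, VPA over untreated, with its standard error for the 5 counted members and the tested genes of the 4 lists, each gene drawn once. Orange points rose, blue points fell and gray points did not pass an adjusted p of 0.05, and the dashed line marks a log2 fold change of 1. MT1F, SLC30A3, SLC30A10 and CSRP1 lie above it.

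Around the metallothionein cluster the tested genes included some that rose and some that fell. Within 500 kilobases on either side of the members the tables list 33 other genes, of which 17 are at 0 in all libraries, among them the 8 other metallothionein genes and pseudogenes of the region, and 10 were tested. Of these 10 genes 4 rose and 3 fell, beside 32.9% and 30.0% over all tested genes, with a median log2 fold change of 0.011, whereas with library totals as the scaling 6 rose and 1 fell. The outer genes GNAO1, for a G protein alpha subunit, and NLRC5, an activator of MHC class I genes, were up-regulated, GNAO1 from 83.2 ± 8.89 to 680 ± 23.7 and NLRC5 from 20.5 ± 2.77 to 95.0 ± 9.21 normalized counts (n = 3 each, SD; adjusted p = 2.85e-17 and 4.82e-10, edgeR). BBS2, a cilium gene and the nearest tested gene on the side of MT3, rose by a log2 fold change of 0.19 (adjusted p = 0.0017, edgeR), and CPNE2 by 0.16 (adjusted p = 0.027, edgeR). On the side of MT3, NUDT21 and OGFOD1 fell, with log2 fold changes of -0.21 and -0.38 (adjusted p = 7.33e-05 and 4.43e-07, edgeR). On the side of MT1X the nearest tested gene, NUP93, for a nuclear pore protein, had a log2 fold change of -0.067 (adjusted p = 0.148, edgeR), and HERPUD1 and PSME3IP1 were at 0.025 and -0.0027 (adjusted p = 0.683 and 0.964, edgeR).

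**Figure D5:**
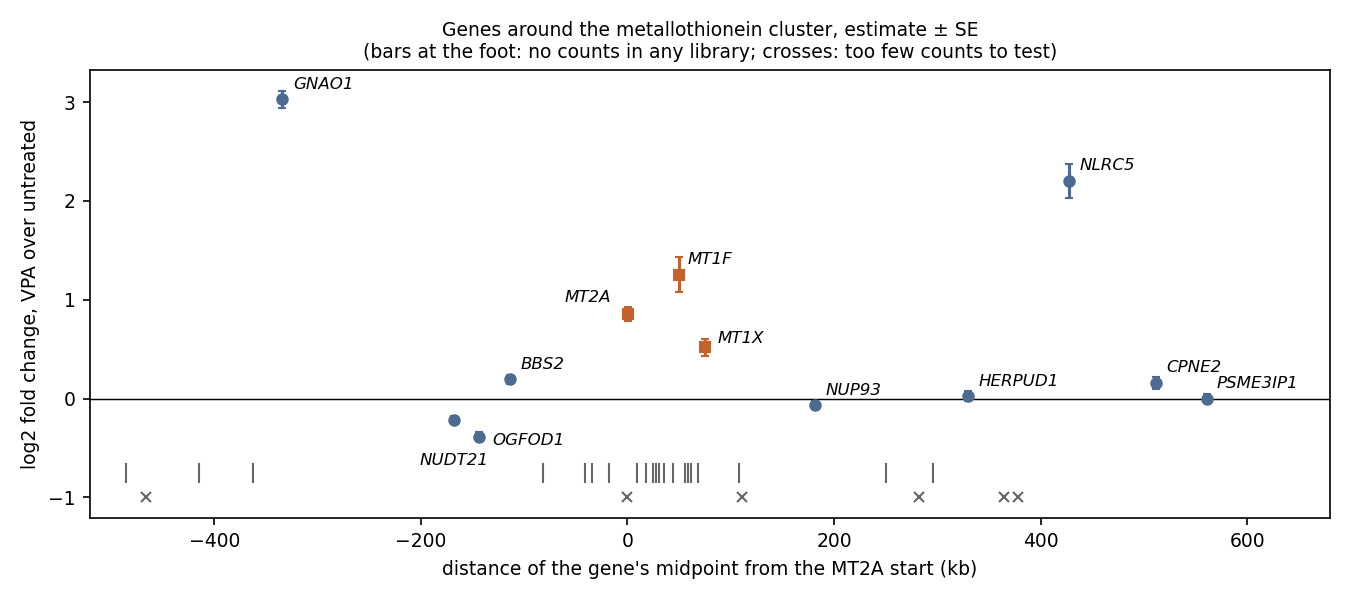
Log2 fold change, VPA over untreated, with its standard error against the distance of each gene's midpoint from the start of MT2A in kilobases. Squares are the counted metallothioneins and circles the other genes named in the text, with marks at the foot for genes that are at 0 or have too few counts. The metallothioneins lie between 0.52 and 1.25, and the tested genes directly beside the cluster, BBS2 and NUP93, at 0.19 and -0.067.

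Over the 6 libraries the genes most like MT2A, by Pearson's r of log2 normalized counts, were DAAM2, DGAT2, PHF21B, SV2C and RUBCNL, with r from 0.9992 to 0.9996. A value over 0.99 was reached by 602 tested genes. For SLC30A1 the 5 likest genes included C1QTNF2, ABL2, ACO1 and ALDH3A2, with r from 0.9949 to 0.9959, and 19 genes had r over 0.99. These correlations rest on 6 libraries in 2 conditions and are given as a description.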

How the data were processed

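RNA-seq libraries were strand-specific and paired-end, 3 from untreated and 3 from VPA-treated cells. Raw counts per gene symbol were deposited, which the authors had obtained by SOAPnuke cleaning, STAR alignment to hg38 and htseq-count. The submitters' processing notes name STAR 2.7.10b and HTSeq 2.0.1, and the gene annotation and strand setting are not given in the sources used here. The 5 summary lines were left out, in which 6.80% to 7.69% of a library's listed reads lay outside genes and 1.97% to 2.10% were ambiguous.

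Tests used edgeR 4.0.16 (R 4.3.3) with the robust quasi-likelihood method on condition alone, after TMM normalization and filterByExpr (count minimum 10). The prior count was 0.125, and p-values were adjusted by Benjamini-Hochberg over 15298 genes. Standard errors (SE) were taken as the size of the log2 fold change over the square root of F. The test was tested on simulated counts with 200 changed genes for the same comparison, and 200 were recovered over 15033 genes with 1 unchanged gene called. The planted changes all exceeded a log2 fold change of 1 in size, and every other gene was left unchanged. Smaller changes, such as those of MT2A, MT1X and SLC30A1, were thus not tested by it. Up and down were drawn at random, so the excess of up-regulated genes seen here was not mimicked. Libraries of a condition differed by more than counting noise (chi-square per gene of 1.62 to 4.80). Symbols were matched to RefSeq on GRCh38.p14 for 42828 genes, and lengths are those of GENCODE 44 transcripts. For metallothioneins the transcript with the shortest complete coding sequence of the family's usual size was used, and for other genes the canonical one. A limit of 3 counts for a count of 0 covers counting error only.

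The members and gene lists were chosen with earlier results of these data known. Named were all members, from each list the genes past both thresholds and the 2 most counted, the tested genes around the cluster, the 5 genes most like MT2A and SLC30A1, and ACTB for reference. Some genes that this rule names are not reported here. SLC30A2, SLC30A6, SLC30A8, SLC39A1, SLC39A4, PGF, SELENOH, GCLC, HAMP, ATP7A, SCO2, SLC31A1 and SLC31A2 were added after their values were seen. Alternatives were DESeq2 1.42.0, 4 other scalings (its size factors, the upper quartile, library totals, 82 ribosomal protein genes), 2 other filters, the replicate block, leaving out each library, and a sum over all listed metallothionein rows.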

Additional observations from a re-analysis of the deposited data

How the results depend on the processing

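MT2A, MT1X, MT1F and SLC30A1 kept their direction and stayed past the threshold under all 14 alternatives, with log2 fold changes of 0.82 to 1.13, 0.47 to 0.79, 1.10 to 1.53 and 0.37 to 0.72, and so did the summed metallothioneins, at 0.74 to 1.04. Adding the 9 other metallothionein rows, all at 0, to that sum could not change it. MTF1 had -0.0064 to 0.059 with 1 library left out, the lowest without untreated replicate 3, and the cause was not tested. The members that rose numbered 4 or 5, and with ribosomal protein genes as the scaling 2 members, MT2A and MT1F, were up-regulated in place of 1.

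The scaling moved the counts over lists. Of the zinc transporter and MTF1 target genes 13 rose and 4 fell, beside 32.9% and 30.0% over all tested genes. The lists held 8, 11 and 7 tested genes, with SLC39A10 in both of the last. With library totals 19 rose and 2 fell, and with ribosomal protein scaling 22 rose and 1 fell. With 1 library left out 12 to 14 rose and 4 to 5 fell. Over all genes 1833 were up-regulated and 77 down-regulated. Library totals gave 38 down and ribosomal protein scaling 17 down (2527 up), other filters gave 162 down (no filter, 2519 up) and 43 down (at least 10 counts in every library, 1179 up), the latter over fewer genes. Leaving out 1 library gave 1874 to 1961 up and 83 to 110 down. Of the genes past the adjusted p alone, those higher with VPA made up 52.3% under TMM, 63.0% under the upper quartile, 73.9% under library totals and 91.8% under ribosomal protein scaling.

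With the replicate block, 4 members rose, 1835 genes were up-regulated and 77 down-regulated, and no member's call changed. Same-numbered libraries had deviations from their group means that correlated at 0.139, 0.0214 and 0.0805. Between differently numbered libraries the correlations were -0.107 to 0.0308. Whether the numbers pair the libraries was not tested. Depth limits MT1F, with 288 reads. Whether depth is also what leaves members at 0 was not tested.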
